A study of Mus musculus with 33 samples.

Results

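The H3K27me3 domains of Uhrf1 knockout (KO) and wild type (WT) embryoid bodies (EBs) at week 2 of differentiation were compared. The comparison was made of the 2 samples that the labels give as EB week2 and H3K27me3, 1 of each genotype, out of 33 samples in the series. Per the labels both came from E14 mouse embryonic stem cells (mESC), grown in medium with serum and leukemia inhibitory factor, aggregated as hanging drops and then cultured as free spheroids, and both were precipitated with the anti-H3K27me3 antibody 07-499 of Millipore. The genotypes were WT and Uhrf1 KO. The study's methods name 2 origins of KO cells. E14 and Uhrf1 KO lines were received from another laboratory, and Uhrf1 fl/fl cells were treated with a retrovirus for Cre recombinase to delete Uhrf1. Which of them gave these EBs, beyond the label E14, and the number of KO clones are not given in the sources used here. With 1 library for each genotype there was no replicate error to compare a difference with, and no p-value is given. The intervals in brackets are 95% intervals that cover counting error over domains or promoters alone. An EB is a mixture of differentiating cells, in which a domain called in 1 list and not in the other cannot be told apart as fewer cells with the mark or less of the mark per cell.

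H3K27me3 is trimethylation of lysine 27 of histone H3, which is placed by Polycomb repressive complex 2 through its catalytic subunits Ezh2 and Ezh1. In stem and progenitor cells it covers CpG-rich promoters of developmental regulators such as the Hox genes, often beside the active mark H3K4me3 in the state called bivalent, and in differentiated cells it can also spread as broad blanket domains over gene-poor sequence. Uhrf1 is known to recognise hemi-methylated DNA and to recruit the maintenance methyltransferase Dnmt1 during replication, and the study asked whether it also bears on bivalent marks during differentiation.

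The WT list had 4769 domains and the KO list 4180, built from bins of 1800 bp in both. WT domains covered 1165 Mb, or 45.5% of the known bases of the mm9 assembly, and KO domains covered 466.8 Mb, or 18.2%. The lists hold regions and no reads, so read totals were not used here, the genotype could not be checked, and a domain that was not called was below the caller's threshold rather than shown to lack the mark. Chromosomes 8 and 11 stood apart from the other 17 autosomes. On chromosome 8 domains covered 70.2% of WT and 38.2% of KO sequence, on chromosome 11 39.2% and 50.3%, and on the others 32.96 to 61.2% in WT and 10.6 to 22.6% in KO. Their part in the results was not tested, and values without both chromosomes are given beside the main ones. Less of X was covered than of any autosome, with 7.65% in WT and 0.268% in KO.

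**Figure D1:**
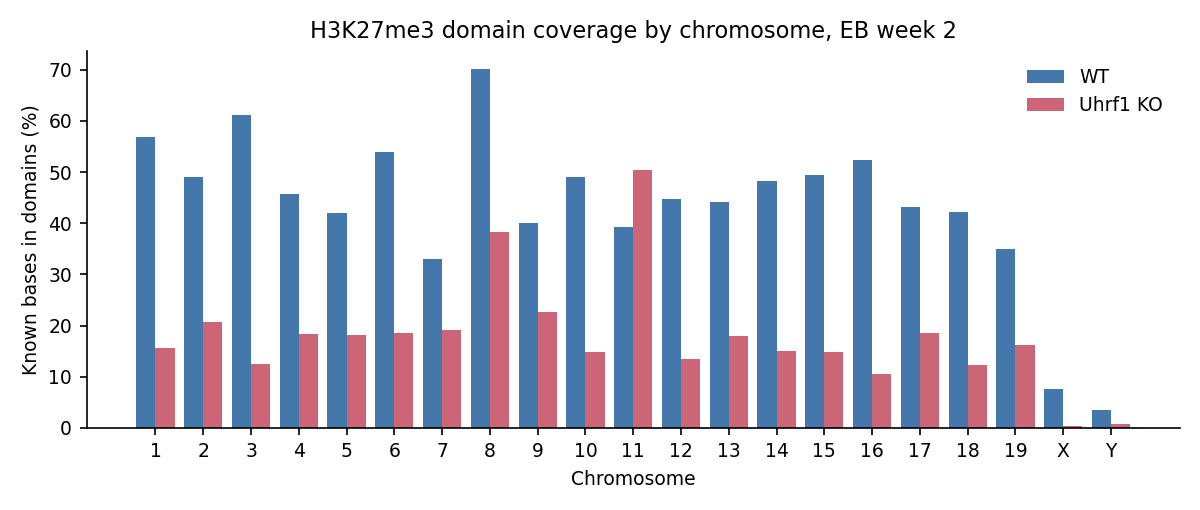
Share of the known bases of each chromosome (vertical axis, %) inside H3K27me3 domains of WT (blue bars) and Uhrf1 KO (red bars) EBs at week 2, 1 library each. Chromosome 11 is the one chromosome with more coverage in KO (50.3%) than in WT (39.2%), and chromosome 8 has the highest coverage in WT (70.2%).

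The label of the mark was checked on genes with a known state. All 40 annotated Hox entries, of 39 genes since Hoxa3 is annotated as 2, were marked in both lists, whereas of 25 housekeeping genes 0 were marked in WT and 1, the proteasome subunit Psmb2, in KO, where the domain covered 11.3% of the window of the promoter. A promoter was called marked when a domain reached within 5 kb of the annotated start of the gene, and was then kept (marked in WT and KO), lost (WT alone) or gained (KO alone).

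The promoters of 5 genes show what these classes look like in sequence. They are 1 kept, 2 lost and 2 gained promoters among those with the highest values in column 5 of the domain list (the mean read count per bin) of the genes named by the fixed lists. Each line gives the 250 bases before the annotated start in mm9, read 5′ to 3′ on the strand of the gene, with CG dinucleotides in capitals.
Neurog2, chr3:127335804-127336053, plus strand: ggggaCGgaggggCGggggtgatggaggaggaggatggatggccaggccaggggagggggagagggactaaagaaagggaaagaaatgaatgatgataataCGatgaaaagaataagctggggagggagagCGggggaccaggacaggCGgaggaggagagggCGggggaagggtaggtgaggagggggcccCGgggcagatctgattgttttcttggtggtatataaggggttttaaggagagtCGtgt
Lyl1, chr8:87225106-87225355, plus strand: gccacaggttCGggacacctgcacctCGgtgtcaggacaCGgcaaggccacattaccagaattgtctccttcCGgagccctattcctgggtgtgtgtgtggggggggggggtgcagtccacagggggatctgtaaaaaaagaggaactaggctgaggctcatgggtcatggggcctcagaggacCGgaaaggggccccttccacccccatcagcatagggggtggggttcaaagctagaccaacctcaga
Sox18, chr2:181406346-181406595, minus strand: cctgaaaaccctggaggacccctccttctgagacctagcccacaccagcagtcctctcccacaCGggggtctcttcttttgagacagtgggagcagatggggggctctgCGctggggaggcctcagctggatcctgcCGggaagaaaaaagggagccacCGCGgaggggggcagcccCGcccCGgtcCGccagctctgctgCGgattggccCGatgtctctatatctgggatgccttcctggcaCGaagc
Gfap, chr11:102762227-102762476, minus strand: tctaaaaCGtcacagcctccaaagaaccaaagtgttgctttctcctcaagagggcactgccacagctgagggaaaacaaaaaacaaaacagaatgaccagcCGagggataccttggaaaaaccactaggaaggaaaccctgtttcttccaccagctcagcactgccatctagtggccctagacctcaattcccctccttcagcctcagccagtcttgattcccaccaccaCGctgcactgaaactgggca
Olfr1371, chr11:52027490-52027739, minus strand: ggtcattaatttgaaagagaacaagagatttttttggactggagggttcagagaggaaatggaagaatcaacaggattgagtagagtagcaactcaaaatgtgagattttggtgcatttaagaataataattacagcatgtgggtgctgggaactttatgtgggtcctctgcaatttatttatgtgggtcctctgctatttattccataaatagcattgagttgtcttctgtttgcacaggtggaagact
Neurog2, a proneural transcription factor, was kept and holds 8 CG dinucleotides. Lyl1, a blood transcription factor, and Sox18, an endothelial one, were lost and hold 5 and 11. Gfap, an intermediate filament of astrocytes, and the olfactory receptor gene Olfr1371 were gained and hold 3 and 0. Over all members of a class the median number of CG in these 250 bases was 7 at kept, 2 at lost and 7 at gained promoters, against 11 at promoters unmarked in both lists. At least 1 CG, which reads the same on both strands, was present in 92.5% of all promoters and in 76.2% of those that were lost. Lyl1 lies on chromosome 8, and both gained genes lie on chromosome 11.

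Of WT domains, 2724 (57.1%, 55.7 to 58.5) shared at least 1 bp with a KO domain and 2045 were WT-only. Of KO domains, 3155 (75.5%, 74.1 to 76.8) shared at least 1 bp with a WT domain and 1025 were KO-only. Counted in sequence the overlap was smaller. Both lists held 278.2 Mb, WT alone held 886.8 Mb and KO alone held 188.6 Mb, so 23.9% of WT sequence lay in KO domains and 59.6% of KO sequence in WT domains. These shares stand beside the 18.2% of the genome that KO domains covered and the 45.5% that WT domains covered. Without chromosomes 8 and 11 the WT share in base pairs was 19.6% beside a KO coverage of 15.5%, and the KO share was 56.3% beside a WT coverage of 44.5%. The rule was rarely decided at its edge. Only 26 shared WT domains and 23 shared KO domains overlapped by a single bin, and 24 WT-only and 21 KO-only domains lay within 10 kb of a domain of the other list. The typical WT-only domain was 295.2 kb from the nearest KO domain, and the typical KO-only domain was 172.8 kb from the nearest WT domain.

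Most of the sequence called in WT alone belonged to very long domains. The WT list held 246 domains of 1 Mb or more, with 586.6 Mb or 50.4% of all WT sequence, and the KO list held 11, with 14.6 Mb or 3.13%. KO domains overlapped 84.6% of these long WT domains but held only 14.1% of their sequence. WT domains under 20 kb were overlapped at 51.2% and had 48.0% of their sequence in KO domains. In the KO list the share of sequence inside WT domains was 58.1 to 69.8% in all 6 length classes. A WT domain with 1 KO partner had a median length of 57.6 kb, and the 394 WT domains with 2 or more partners had a median of 782.1 kb and together covered 560.1 Mb. Up to 24 KO domains lay within 1 WT domain.

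**Figure D2:**
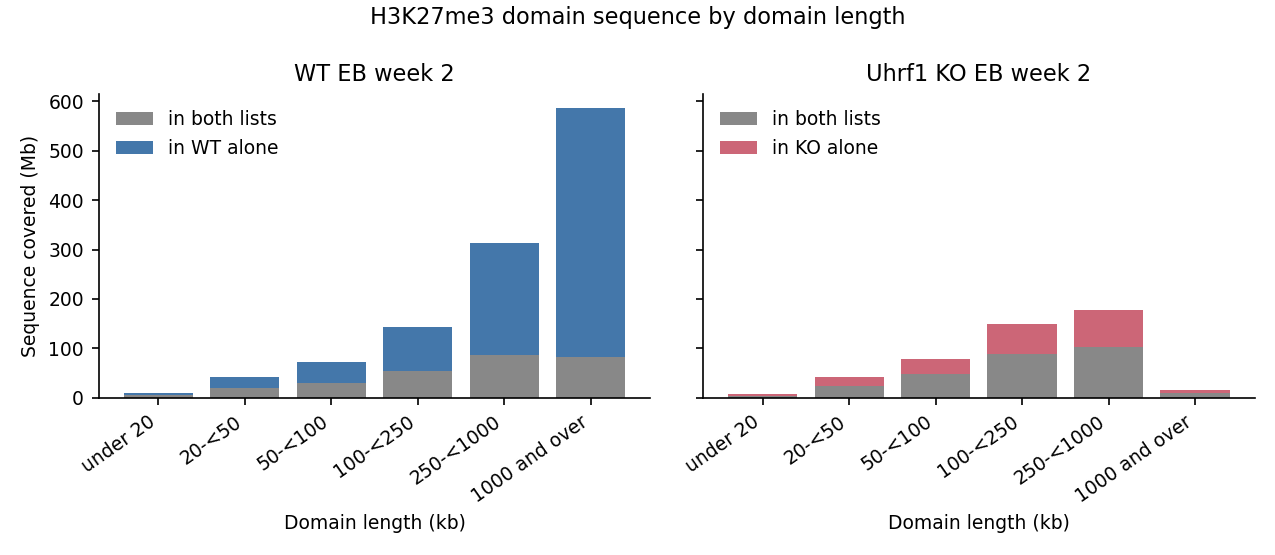
Sequence in H3K27me3 domains (vertical axis, Mb) by domain length (horizontal axis, kb) in WT (left) and Uhrf1 KO (right) EBs at week 2, with the part inside domains of the other list in grey and the part outside in colour. Of the 586.6 Mb in WT domains of 1 Mb and over, 82.6 Mb lay in KO domains.

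The longest shared WT domain, of 11.4 Mb on chromosome 14 (87978601 to 99423000), was the one with 24 KO partners, which covered 12.3% of it. Its coding starts included those of Pcdh9, Pcdh20, Klhl1 and Dach1, the first pair being protocadherins, which are neuronal cell adhesion proteins, and Dach1 a developmental transcription regulator. A second domain on chromosome 14, of 10.5 Mb, held Slitrk1, Slitrk5 and Slitrk6, synaptic adhesion genes, and the glypicans Gpc5 and Gpc6, with 7.14% of it in 14 KO domains. The third, of 8.45 Mb on chromosome 1, held the cadherins Cdh7 and Cdh19 and had 6.81% of its length in KO domains. The 3 longest WT-only domains, of 4573.8, 3596.4 and 3205.8 kb on chromosomes 4, 13 and 3, held 2, 3 and 1 coding starts, among them the neuronal gene Lingo2 and the matrix genes Edil3 and Hapln1. The longest KO-only domain was 880.2 kb long, on chromosome 5, and held Mn1, Cryba4 and Crybb1 among its 4 starts. The next were 826.2 kb on chromosome 12 and 820.8 kb on chromosome 11, the latter over Fstl4. The 9 domains with the highest column 5 among the shared, WT-only and KO-only classes, 3 of each, were all single bins of 1.8 kb without a coding start, and the 3 shared ones lay on X and chromosome 8.

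WT-only domains were shorter than shared WT domains and ranked lower in column 5. Their median length was 55.8 kb (52.2 to 59.4) against 75.6 kb (70.2 to 81.0), and their median percentile of column 5 within the WT list was 39.3 (36.8 to 41.0) against 58.7 (57.0 to 60.2). KO-only domains were also shorter than shared KO domains, at 45.0 kb (41.4 to 46.8) against 72.0 kb (68.4 to 75.6), but their percentiles differed by less than the intervals, at 51.2 (48.9 to 53.4) against 49.4 (47.4 to 51.5). The order of the lengths rests on the rule of 1 bp, which long domains meet more easily. When at least 50% of a domain had to be covered, the log2 ratio of shared to WT-only median lengths went from 0.44 to -0.72 and that of shared to KO-only from 0.68 to -0.04, and the difference in percentile of shared minus KO-only domains went from -1.87 to 3.96. The ranges from the ends of the median intervals were -0.88 to -0.53 for -0.72, -0.17 to 0.13 for -0.04 and -0.86 to 8.18 for 3.96. The latter ranges hold both signs.

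The share of WT domains overlapped by KO went from 40.9% (37.8 to 44.0) in the lowest quintile of column 5 to 72.1% (69.2 to 74.9) in the highest, although domains of the highest quintile were the shortest, with a median of 19.8 kb against 124.2 kb. Counted in base pairs, the share in KO domains was 19.25 to 23.28% in the 4 lower quintiles and 44.64% in the highest. This stands beside the 18.2% of the genome that KO domains covered. By length the share of WT domains overlapped was 50.6 to 57.0% in the 4 shorter quintiles and 71.8% (68.9 to 74.6) in the longest. In base pairs it went the other way, from 46.9% in the shortest to 19.25% in the longest quintile. Within every quintile of length the median percentile was higher in shared than in WT-only domains, by 5.87 points in the shortest quintile and by up to 23.3 points in the other 4. By the rule of 1 bp, KO domains followed length but not column 5. Their overlapped share went from 65.8% to 88.9% from the shortest to the longest quintile, and was 79.9% in the lowest and 78.7% in the highest quintile of column 5, with 71.2% in the middle. In base pairs the share in WT domains was 58.21 to 61.18% in every quintile of length, so the order by length rests on the rule of 1 bp. By column 5 it was 52.96 to 71.1%.

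**Figure D3:**
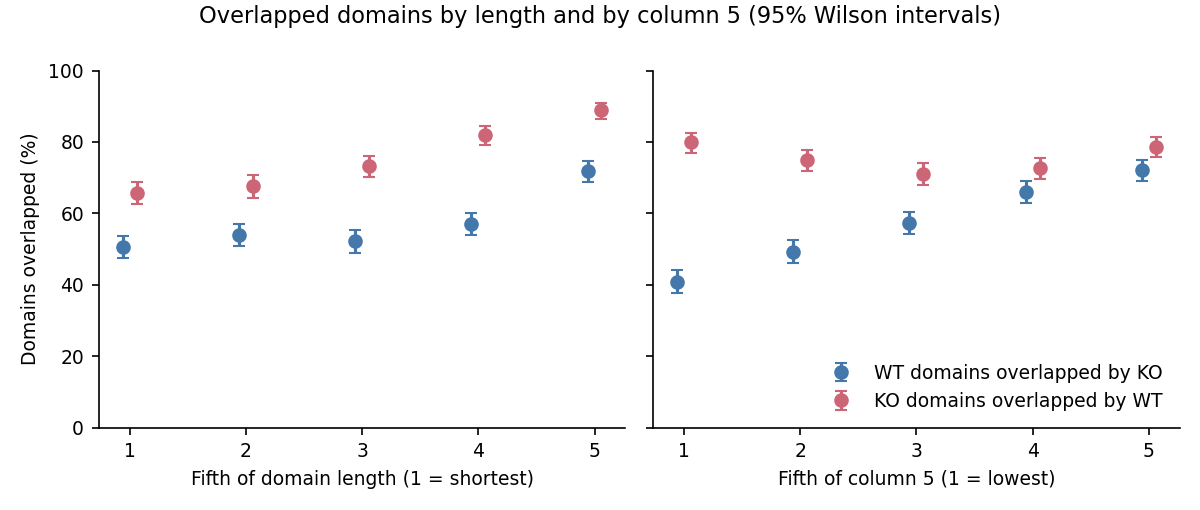
Share of domains overlapped by at least 1 bp of the other list (vertical axis, %) in 5 equal groups of domain length (left) and of column 5 (right), for WT domains (blue) and KO domains (red) of week 2 EBs. Bars are 95% Wilson intervals over domains. WT domains go from 40.9% to 72.1% from the lowest to the highest quintile of column 5, and KO domains from 79.9% through 71.2% to 78.7%.

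Sequence marked in WT alone was the poorest in genes, and sequence marked in neither list the richest. Protein-coding starts numbered 9.99 per Mb (9.62 to 10.4) in sequence marked in both lists, 3.53 per Mb (3.41 to 3.66) in WT alone and 9.39 per Mb (8.96 to 9.84) in KO alone, against 12.2 per Mb in neither list and 8.74 per Mb over the assembly. Without chromosomes 8 and 11 they numbered 10.8, 3.57 and 8.93. Of WT-only domains 69.0% held no coding start, compared with 35.4% of shared WT domains, 45.5% of shared KO domains and 51.1% of KO-only domains. Coding gene bodies took 22.6% of the sequence in WT alone, 30.6% of that in both lists, 42.9% of that in KO alone and 52.2% of that in neither, beside 38.9% of the assembly. The sequence in WT alone was also poorest in GC, at 38.5%, and in CpG, at 5.66 per kb, whereas the sequence in KO alone had 46.4% GC and 11.4 CpG per kb, and the assembly 41.8% and 8.34. If whole domains were classed in place of base pairs, the densities were 5.43 in shared, 5.003 in WT-only and 11.6 in KO-only domains, since shared domains then include the gene-poor length of the long WT domains.

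Of 22367 protein-coding promoters, 6671 (29.8%) were marked in WT and 5391 (24.1%) in KO. KO kept 3256 of the promoters marked in WT, a share of 48.8% (47.6 to 50.01), and lost 3415. It gained 2135 of the 15696 promoters unmarked in WT, a share of 13.6% (13.1 to 14.1). Without chromosomes 8 and 11 the kept share was 44.6% and the gained share 12.3%. Chromosome 11 alone held 362 gained and only 38 lost promoters. At kept promoters the overlying domain had a median length of 138.6 kb in WT and 140.4 kb in KO, and it was shorter in KO at 1452 promoters, longer at 1695 and equal at 109. Lost promoters lay in longer WT domains, with a median of 455.4 kb. The kept share went from 35.5% (32.98 to 38.1) to 66.8% (64.2 to 69.3) from the lowest to the highest quintile of the WT column 5 percentile. Domains covered the whole window of 5 kb either side at 80.2% of promoters marked in WT and at 73.9% of those marked in KO, and under 50% of it at 11.4% and 15.6%. Among the genes named here, the WT domains at Ednra, Sfrp4, Dazl and Sycp1 and the KO domains at Smyd1, Fzd10, Yaf2 and some cardiac genes were of the latter kind, so these calls rest on the edge of the rule.

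Homeobox genes outside the Hox clusters kept nearly all of their marks. Of 105 that were marked in WT, KO kept 102 (97.1%, 91.9 to 99.0), beside 48.8% of all promoters marked in WT. The 3 lost were Six4, a muscle and sensory placode factor, Phox2a, of noradrenergic neurons, and Cdx4, a posterior patterning gene on X, with WT domains of 93.6, 14.4 and 10.8 kb. The intestinal factor Cdx1 was gained, in a KO domain of 120.6 kb. Lhx4, a pituitary and motor neuron factor, had the highest column 5 of this list in WT and Lhx6, of forebrain interneurons, in KO. Lhx4 lay in domains of 46.8 kb in WT and 55.8 kb in KO. Every marked gene was also kept among 8 Pax genes, 12 T-box genes, 15 endoderm factors and 14 cardiac factors. Forkhead genes were kept at 21 of 22, the exception being the brain and lung factor Foxp2 in a WT domain of 1422.0 kb, and proneural genes at 18 of 19, the exception being Neurod4. With domains at or above the median of column 5 in both lists, the kept share was 84.3% for homeobox, 85.0% for forkhead and 78.6% for cardiac factors, beside 36.01% of all promoters.

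The cardiac factors showed kept marks under domains of quite different length. Nkx2-5, an early heart factor, lay in a domain of 46.8 kb in WT and 72.0 kb in KO, in the top percentiles of both lists (97.6 and 96.3). Hand2, of the right ventricle and neural crest, lay in 2048.4 kb in WT and 374.4 kb in KO, Isl1, of the second heart field, in 1539.0 and 106.2 kb, and Mef2c in 1512.0 and 41.4 kb. The opposite order was seen at Gata4, with 64.8 kb in WT and 300.6 kb in KO, and at Irx4, with 124.2 and 808.2 kb. Gained cardiac factors were Gata5, Hopx, Myocd, a coactivator of muscle genes, and Smyd1, that is 4 of the 6 unmarked in WT, beside 13.6% of all promoters unmarked in WT.

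Cardiac contractile and conduction genes were mostly unmarked in WT. Of 31 such genes 8 were marked in WT and 14 in KO. KO kept 6 (75.0%, 40.9 to 92.9, an interval that includes the 48.8% of all promoters) and lost 2, among them the sarcomere protein Actn2. It gained 8 of the 23 unmarked in WT (34.8%, 18.8 to 55.1), beside 13.6% of all promoters unmarked in WT. The gained ones were the titin gene Ttn, the myosin genes Myh6, Myl2 and Myl4, the troponin Tnnt2, the sarcomere protein Mybpc3, desmin (Des) and the connexin Gja5. In 5 of the 8 the KO domain covered the whole window. In the other 3 it reached the edge of the window without the start, covering 7.77% at Myl4, 13.04% at Des and 32.2% at Gja5. Of the 8, 7 lay outside chromosomes 8 and 11. The kept Actc1, cardiac actin, had a WT domain of 135.0 kb over the whole window, whereas its KO domain of 91.8 kb covered only 9.17% of the window and not the start.

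Among lineage markers of other kinds the marks were kept at 14 of 17 neuronal and glial, 13 of 17 neural crest, 13 of 15 blood and endothelial and 7 of 8 liver and yolk sac genes, beside 48.8% of all promoters marked in WT. The lower ends of the intervals of the 4 shares were 58.97, 52.7, 62.1 and 52.9%. With domains at or above the median of column 5, the neural crest share was 50% (25.4 to 74.6) and the blood and endothelial share 54.5% (28.01 to 78.7), and both intervals then included the 36.01% of all promoters. Lost neuronal genes were Gad2, Snap25 and Stmn2, and gained ones, 4 of the 12 unmarked in WT, were Gfap, the myelin gene Mbp, Th and Nes, the neural progenitor filament. This share of 33.3% (13.8 to 60.9) stands beside 13.6% of all promoters. Lost neural crest genes were Ednra, Mitf, Snai2 and Tyr, in WT domains of 102.6 kb (Mitf) to 3438.0 kb (Tyr). Sox genes were kept at 8 of 10, with the neural and pluripotency factor Sox2 in domains of 57.6 kb in WT and 52.2 kb in KO, and with Sox18 and the X-linked Sox3 lost. The albumin gene Alb and its neighbour Afp shared 1 domain in each list, of 97.2 kb in WT and 99.0 kb in KO.

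Signalling genes had a mixed outcome. Of Wnt ligands, receptors and antagonists, 18 of 25 (72.0%, 52.4 to 85.7) were kept. Wnt1 lay in domains of 41.4 kb in WT and 50.4 kb in KO. The ligands Wnt2, Wnt2b and Wnt5a, the receptor Fzd1 and the antagonists Dkk2, Frzb and Sfrp4 were lost, and the ligands Wnt4 and Wnt11 and the receptor Fzd10 were gained. The gained ones were 3 of 14 unmarked in WT (21.4%, 7.57 to 47.6), an interval that includes the 13.6% of all promoters. Of FGF, TGF-beta and hedgehog family genes 21 of 33 were kept (63.6%, 46.6 to 77.8), an interval that includes the background share of 48.8%. The lost ones included Bmp4, Bmp5, Fgf10, Inhba and Dhh, and Fgf3, Fgf4 and Fgf15 were lost together with 1 WT domain of 84.6 kb. The 7 gained ones, of 27 unmarked in WT (25.9%, 13.2 to 44.7), included Lefty1, an inhibitor of Nodal, and Fgf21. That interval also includes the 13.6% of all promoters.

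Marks on pluripotency and germline genes were few. Of 23 pluripotency genes 9 were marked in WT and 5 of these were kept, namely Prdm14, Sall1, Sox2, Tbx3 and Utf1. Zfp42, Tdgf1, Nr0b1 and Fgf4 were lost and Esrrb was gained, 1 of the 14 unmarked in WT. Of 10 marked germline genes 4 were kept. The intervals of both kept shares, 55.6% (26.7 to 81.1) and 40.0% (16.8 to 68.7), include the 48.8% of all promoters, and with domains at or above the median of column 5 the germline share was 0.0% (up to 43.5%). Germline genes lost included Dazl, an RNA-binding protein of germ cells, and Sycp1, of the synaptonemal complex, while Ddx4, Tdrd1, Tex101 and Tex19.1 were gained, 4 of the 10 unmarked in WT. This share of 40.0% (16.8 to 68.7) stands beside 13.6% of all promoters unmarked in WT. Of 32 genes of Polycomb complexes and H3K27 enzymes, Bmi1, Pcgf1 and Cbx8 were kept and 5 were gained, among them Cbx2, Pcgf5, Phf19 and Yaf2. The gained share of 17.2% (7.60 to 34.6) includes the 13.6% of all promoters in its interval. The neighbouring Cbx2 and Cbx8 lay in 1 KO domain of 840.6 kb on chromosome 11, whereas the WT domain at Cbx8 was 34.2 kb long. None of 20 Setd1a/COMPASS genes, which encode the H3K4 methyltransferase complex, was marked in either list.

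Olfactory receptor genes, a tandem-duplicated family of nasal sensory neurons, went the other way. Of 1087 such promoters 1024 were marked in WT and 195 in KO. KO kept 176, a share of 17.2% (15.0 to 19.6) beside the 48.8% of all promoters marked in WT, lost 848 and gained 19. The gained ones were 30.2% (20.2 to 42.4) of the 63 unmarked in WT, beside 13.6% of all promoters. Promoters of this family are not independent, since the marked ones lay in 81 WT and 48 KO domains. The median WT domain over an olfactory promoter was 910.8 kb long, and the median KO domain 183.6 kb. On chromosome 2, with the most genes, 17 of 281 marked promoters were kept, on chromosome 9 4 of 126 and on chromosome 19 0 of 55. Chromosome 11 differed, with 63 of 74 kept. Without chromosomes 8 and 11 the family kept 110 and lost 835 (11.6%), and with domains at or above the median of column 5 it kept 8.19%. Vomeronasal receptor genes, the pheromone receptors, were kept at 45 of 215 marked promoters (20.9%, 16.03 to 26.9), in 60 WT and 24 KO domains, and at 9.52% with domains at or above the median of column 5. Under that rule the share of all promoters was 36.01%. Without both receptor families, a choice made after the data were seen, the kept share of all promoters was 55.9%.

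Keratin and keratin-associated genes, of epithelia and hair, had 63 marked promoters in WT and 76 in KO, with 45 kept (71.4%), 18 lost and 31 gained of the 34 unmarked in WT (91.2%), beside 48.8% and 13.6% of all promoters. They lay in only 7 WT and 5 KO domains. Without chromosomes 8 and 11 the counts were 14 kept, 18 lost and 13 gained, and the kept share of 43.75% (28.2 to 60.7) includes the 44.6% of all promoters there in its interval. The type I keratin Krt13 lay in a KO domain of 1047.6 kb on chromosome 11 with no WT domain, whereas Krt6a on chromosome 15 lay in 131.4 kb in WT and 678.6 kb in KO. All 24 clustered protocadherin promoters on chromosome 18 were kept, in 2 domains of each list.

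**Figure D4:**
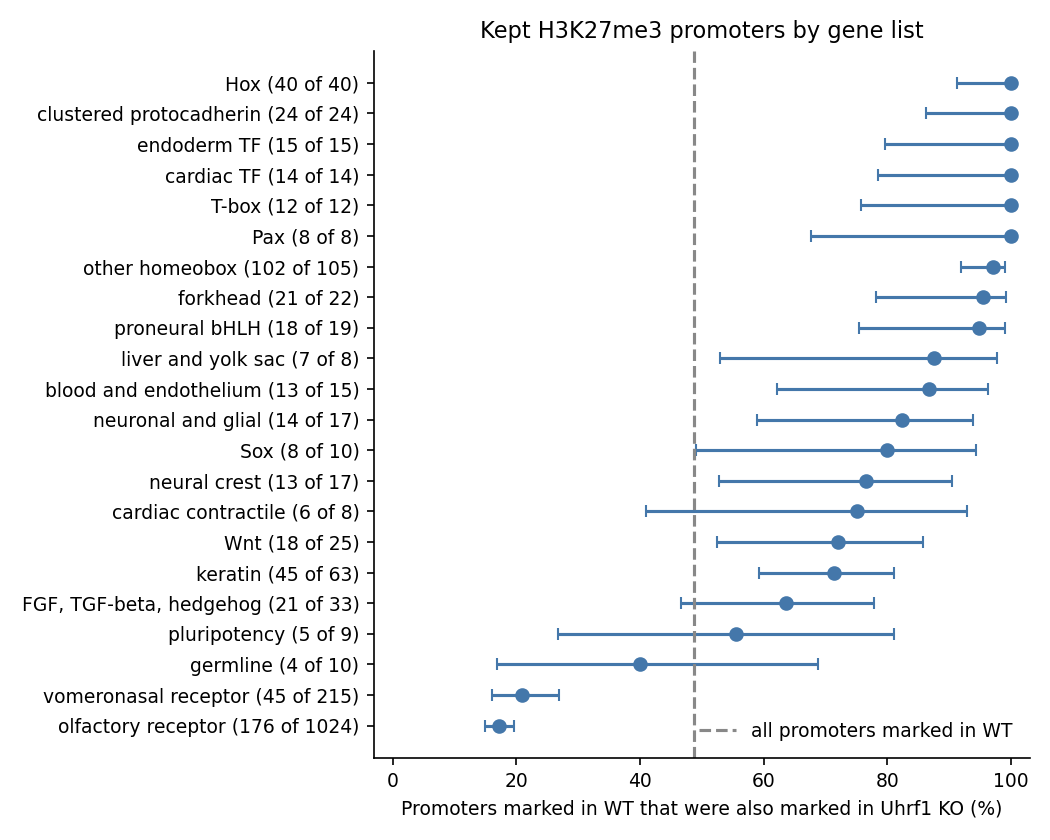
Share of promoters marked in WT that were also marked in Uhrf1 KO (horizontal axis, %), for the fixed gene lists with at least 8 of them, with 95% Wilson intervals that treat promoters as independent, the counts after each name, and the share over all promoters marked in WT as a dashed line at 48.8%. The list of the 12 genes named by the study is not drawn. Lists of transcription factor families lie between 80.0% (Sox) and 100% (Hox, Pax, T-box, endoderm and cardiac), and the 2 receptor families at 17.2% and 20.9%.

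Of 19 lists with at least 10 promoters marked in WT, 16 had a kept share above that of all promoters, and germline, olfactory and vomeronasal genes had a lower one. Both the 19 and the 16 include the list of the 12 genes named by the study, with 8 of 10 kept. The lists share some genes, and many neighbours share a domain, so this count is a description. The study itself named 12 genes for their marks in this series. Msx2, Hand2, Tubb3, Nes, Klf2 and Sall1 were named from mESC and the others from EBs. In mESC the study reported less H3K4me3 and less H3K27me3 in KO at Msx2 and Hand2. At Tubb3, Nes, Klf2 and Sall1 it reported a loss of H3K4me3. In EBs it reported a loss of H3K27me3 at Nkx2-5, Tbx5 and Wnt2b. For Ednra, Otx2 and Neurod1 it reported a failure to gain H3K4me3. As genes picked from the same series the 12 are no independent evidence. Of the 12, Hand2, Msx2, Neurod1, Nkx2-5, Otx2, Sall1, Tbx5 and Tubb3 were kept, Ednra and Wnt2b were lost, Nes was gained and Klf2 was unmarked in both lists. Among the genes named for H3K27me3, Hand2, Msx2, Nkx2-5 and Tbx5 were thus kept and Wnt2b was lost. A kept call means that a domain was present, and a change in its level was not tested. Genes named for H3K4me3 alone are classed here by H3K27me3, so their classes do not bear on what the study reported. The WT domain of Wnt2b was 25.2 kb long and ranked at percentile 70.9, and the KO domain of Nes was 77.4 kb long and ranked at percentile 90.4.

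Each of the 4 Hox clusters lay whole inside 1 WT domain and 1 KO domain. At HoxA (chromosome 6, 52105366 to 52210874) the domain was 538.2 kb long in WT and 394.2 kb in KO. At HoxB (chromosome 11, 96055630 to 96229570) the lengths were 669.6 and 682.2 kb, and at HoxC (chromosome 15, 102751534 to 102867274) 459.0 and 507.6 kb. HoxD (chromosome 2, 74506367 to 74603200) differed most. Its domain was 1328.4 kb long in WT, reaching 391.4 kb below and 840.2 kb above the cluster, and 250.2 kb in KO, reaching 89.0 and 64.4 kb. The percentile of column 5 within its own list was 97.7 in WT and 93.7 in KO for HoxA, 97.9 and 99.0 for HoxB, 98.9 and 98.3 for HoxC, and 86.8 and 97.1 for HoxD. The differences in length lie outside the genes, so no Hox promoter changed class.

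**Figure D5:**
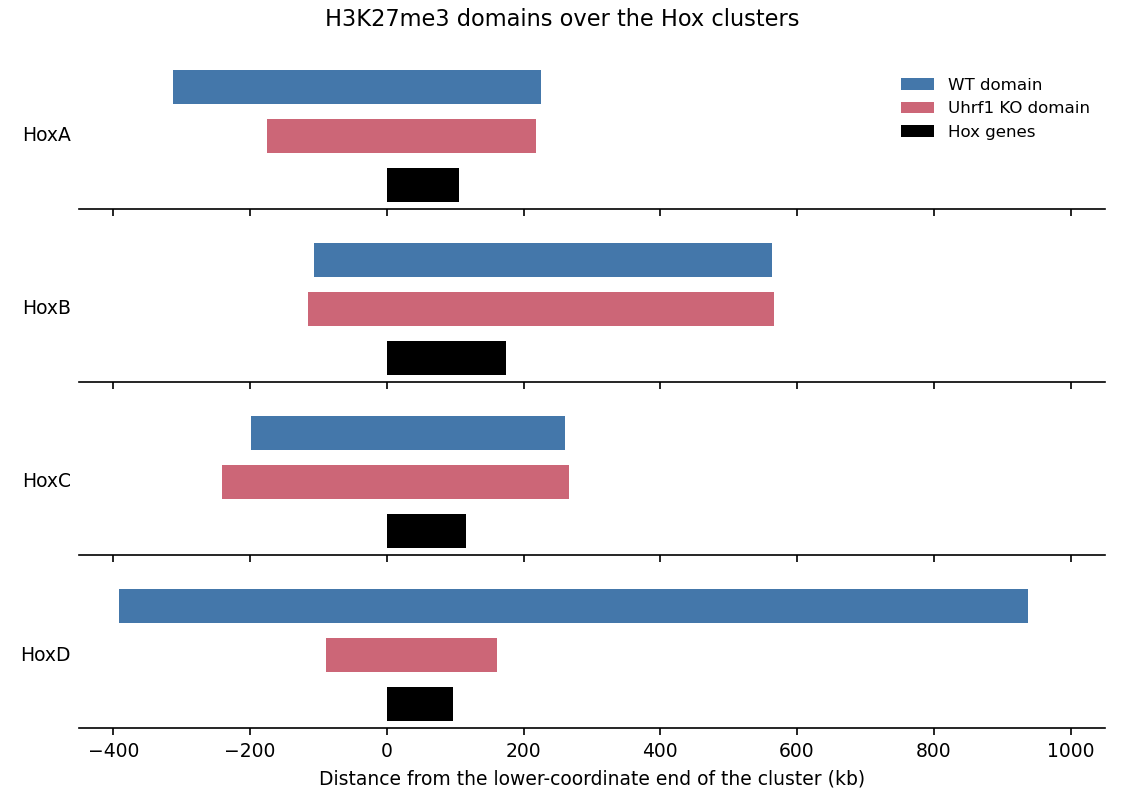
H3K27me3 domains of WT (blue) and Uhrf1 KO (red) over each Hox cluster (black, first to last base of its Hox genes), drawn by distance from the lower-coordinate end of the cluster (horizontal axis, kb). Domain ends are close in HoxB (669.6 and 682.2 kb) and far apart in HoxD (1328.4 and 250.2 kb).

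Kept promoters more often carried H3K4me3 and were more often CpG-rich than lost ones. H3K4me3, taken as a domain within 2 kb of the start in the WT week 2 list, was present at 57.4% of kept, 34.96% of lost, 58.2% of gained and 76.6% of unmarked promoters. Read the other way, KO kept 61.0% of 3064 marked promoters with H3K4me3 and 38.4% of 3607 without it, a difference of 22.6 points (20.2 to 24.9), or 26.8 points without chromosomes 8 and 11. Olfactory and vomeronasal receptor genes had 848 and 170 lost promoters, and only 9 and 3 of all their promoters carried H3K4me3 in WT. Nearly all of them therefore count as without it. The interval treats them as independent, and the difference without these families was not computed. By the same rule an H3K4me3 domain was called in the KO week 2 list at 55.1% of kept, 33.1% of lost and 56.3% of gained promoters. Of the 1194 lost promoters that had H3K4me3 in WT, 1083 had it in KO as well. These calls say that a domain was present and do not measure its level. H3K4me3 domains covered 8.04% of the genome in WT and 6.04% in KO at week 2. Examples of lost H3K27me3 with H3K4me3 in both genotypes were Bmp4, Snap25, Lyl1 and Wnt5a.

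CpG-rich promoters (observed over expected CpG of at least 0.6 and GC of at least 50% within 500 bp of the start) were kept at 65.8% of 1889, and CpG-poor ones at 42.1% of 4782, a difference of 23.7 points (21.1 to 26.2), or 28.1 points without chromosomes 8 and 11. The difference was 52.2 points (46.2 to 56.5) among promoters without H3K4me3, where 149 of 169 CpG-rich and 1237 of 3438 CpG-poor ones were kept, and 5.87 points (2.38 to 9.34) among those with it. Olfactory and vomeronasal receptor genes had 0 and 1 CpG-rich promoters, so nearly all of them count as CpG-poor. The CpG differences were not computed without these families. Promoter gains had the opposite sign, with 9.37% of CpG-rich and 17.99% of CpG-poor promoters gained, and 10.7% of those with H3K4me3 and 22.0% of those without.

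The other H3K27me3 lists of the series, each again from 1 library, were laid over the week 2 classes. Sequence marked in both week 2 lists was the best covered in 5 of the 6 other lists, at 84.5% in WT mESC and 84.6% in WT week 3 and at 64.0% in KO week 3. Sequence in WT alone was covered to 53.2% in WT mESC and 38.1% in WT week 3, but to 0.698% in KO mESC, 1.23% in WT week 1, 1.13% in KO week 1 and 15.3% in KO week 3. Sequence in KO alone was covered to 32.8% in KO week 1, more than the 29.0% of sequence in both, and to 53.8% in WT week 3. Promoters gained at week 2 were marked at 40.8% in WT and 57.9% in KO at week 1, and at 58.3% in WT and 40.0% in KO at week 3, against 9.90% and 2.64% at week 3 of those unmarked in both. The H3K9me3 domains of WT mESC, a mark of heterochromatin, covered 60.4% of the sequence in both, 64.2% of that in WT alone and 22.3% of that in KO alone, beside 38.6% of the genome.

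Set beside the other stages, all 40 Hox entries were marked in each of the 8 H3K27me3 lists. Other homeobox genes were kept at 48 of 106 in mESC, 104 of 106 at week 1 and 104 of 108 at week 3, against 102 of 105 at week 2. Olfactory promoters were marked in number in WT mESC (678), WT week 2 (1024) and WT week 3 (543), but not in WT week 1 (79), and in KO lists at 32, 72, 195 and 311 from mESC to week 3. The kept share of all promoters was 15.5% in mESC and 72.3%, 48.8% and 49.9% in EBs of weeks 1, 2 and 3, and the gained share of 13.6% at week 2 compares with 3.34%, 7.91% and 4.32% at mESC, week 1 and week 3. The lists differed in covered length from 84.1 to 1165 Mb and in bin from 1500 to 1800 bp, and whether stages differ was not tested.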

How the data were processed

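H3K27me3 ChIP-seq of WT and Uhrf1 KO EBs at week 2 was analysed, 1 library each. Per the labels, the authors aligned reads to mm9 with Bowtie2 2.1.0. Per the study's methods they called broad domains with the rseg-diff program of RSEG, although the tool named in the labels is MACS. The lists deposited by the authors give every domain a signal (column 5, read count per bin on average) and a score that follows domain length and was not used for any result. Whether the signal is scaled to depth or input is not stated, so it was used as a rank within a list. The exception is 1 alternative, which set the lowest WT value as a minimum for KO domains. The Uhrf1 list gives windows alone. Of the 33 samples 13 were analysed, and the other 20 (8 inputs, the Oct4, Sox2 and Nanog samples, and H3K4me3 at the other stages) were not analysed here. Whether any library was pooled is not given in the sources used here.

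Domains were compared by base pairs and by 1 bp overlap with Python 3.11.15, numpy 2.4.6, scipy 1.17.1 and pandas 2.3.3, and plotted with matplotlib 3.10.9. Genes came from the GENCODE vM1 annotation and promoter sequences from the NCBIM37 genome, both of the build of the lists, and counts are of annotation entries, a few genes having 2, and no domain reached past the end of a chromosome. Promoters were 5 kb either side of the start for H3K27me3 and 2 kb for H3K4me3. Shares have Wilson, differences Newcombe and densities exact Poisson 95% intervals, and medians order-statistic intervals, all of counting error alone. Overlap and promoter calls were tested on simulated data, where 0 of 9600 calls were wrong. Named genes were, in each of 26 lists, the kept, lost and gained promoter with the highest column 5, the 12 genes of the study, and the 3 longest and 3 highest domains of each class. Genes named beyond that rule, as all lost or gained members of a short list or as examples, were chosen after their values were seen, and some items that the rules name are not reported here. The members and lists were chosen with earlier results of these data known. Alternatives changed the overlap rule, the domains used, the chromosomes and the promoter window, and those without chromosomes 8 and 11, with a column 5 minimum for KO, or without receptor genes were added after seeing the data.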

Additional observations from a re-analysis of the deposited data

Results flagged for a closer look

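With 1 library per group no library could be set against others of its group. Differences in direction between stages were looked for in the number of promoters marked in KO minus in WT, requiring at least 5 promoters at both stages, and none of them was tested. Over all promoters the difference was -1280 at week 2 and 139 at week 1. Genes of cardiac contraction had 6 more marked promoters in KO than in WT at week 2, with 14 against 8, and -9 in mESC, with 3 against 12. Keratin genes had 13 more at week 2, with 76 against 63, and -76 in mESC, with 4 against 80. Without chromosomes 8 and 11 keratin genes had 18 lost and 13 gained promoters at week 2, so the difference was negative there. The 18 type I keratin genes of chromosome 11 were all gained in 1 KO domain. Polycomb and H3K27 enzyme genes had 5 more at week 2, with 8 against 3, and -5 in mESC. The KO mESC list covered 84.1 Mb, the shortest of the 8, and the WT week 1 list 101.3 Mb, and their part in these differences was not tested.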

How the results depend on the processing

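No paired analysis was possible because each group holds 1 library, and for the same reason no replicate could be left out. Of 78 values that answer a comparison, recomputed under an alternative, 31 fell inside the interval of the value reported (or, for base pairs, within 1 point, and for a count within 1.5 times), 44 moved and 3 reversed, and of 57 kept shares of single lists 9 moved. With domains at or above the median of column 5 these were the other homeobox (84.3%), neural crest (50%), blood and endothelial (54.5%), germline (0.0%), olfactory (8.19%), vomeronasal (9.52%) and keratin genes (100.0%), and without chromosomes 8 and 11 the olfactory (11.6%) and keratin genes (43.75%). The keratin share of 100.0% has an interval of 43.85 to 100.0%, so it rests on very few promoters. Where values moved the cause was not tested. The reversed ones, by the sign of the value alone, all came with at least 50% of a domain covered: the log2 length ratios of shared to WT-only (-0.72) and to KO-only domains (-0.042) and the column 5 difference of shared minus KO-only domains (3.96 points). The ranges of the KO-only ratio (-0.17 to 0.13) and of the column 5 difference (-0.86 to 8.18) hold both signs. The column 5 difference did so under the main rule too (-6.05 to 2.61). The same rule gave 40.5% of WT and 61.1% of KO domains overlapped and a column 5 difference of 25.3 points for shared minus WT-only domains. Reciprocal coverage of 50% gave 18.9% and 21.6%. With domains at or above the median of column 5 the WT share was 45.5%, the KO share 55.4%, the kept share 36.01%, the gained share 8.86% and the H3K4me3 difference 26.0 points. Equal numbers of domains gave 59.9% and 71.1%. Equal covered lengths gave 69.3% and 39.2%, a kept share of 58.5% and a gained share of 18.9%. In base pairs the shares were 23.9% and 59.6%. On autosomes the WT share was 59.2% and the gained share 14.4%. Without chromosomes 8 and 11 the WT share was 54.3%, the base pair shares 19.6% and 56.3%, the starts per Mb 10.8 in both lists and 8.93 in KO alone, the kept share 44.6%, the gained share 12.3%, the H3K4me3 difference 26.8 points and the CpG difference 28.1 points. With the KO list limited to column 5 values that WT domains reach the WT share was 54.6% and the kept share 46.1%. This alternative compares column 5 between the lists, and whether they have a common scale is not known. Domain classes gave 5.43, 5.003 and 11.6 starts per Mb in shared, WT-only and KO-only domains, and all annotated genes 16.1, 6.95 and 15.3. The start base alone gave a kept share of 47.0% and a gained share of 10.8%, coverage of 50% of the window 47.0% and 10.8%, and a window of 2 kb a gained share of 12.2%. Without receptor genes the kept share was 55.9%, and under the stricter CpG rule the CpG difference was 17.7 points. Depth limits every absence, since a region below the caller's threshold in 1 library is not shown to lack the mark.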

Other observations

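Gene families chosen after their promoter classes had been seen showed the same kinds of blocks. Those marked mainly in WT were the trace amine receptors, with 15 lost promoters and 0 kept in 1 WT domain of 207.0 kb, the taste receptors, with 32 lost, 1 kept and 1 gained in 7 WT domains, the prolactin family, with 22 lost and 2 kept in 3 WT domains, and the small proline-rich genes of the epidermis, with 12 lost and 0 kept. The late cornified envelope genes, also of the epidermis, had 17 kept and 1 lost in 1 domain of each list, and the carboxylesterases had 20 kept and 0 lost, all on chromosome 8. On that chromosome 62.3% of all promoters marked in WT were kept. Families marked mainly in KO were the WAP-domain genes, with 13 gained of 13 unmarked in WT and 3 kept, and the lipocalins, with 9 of 11 gained and 1 kept. Others were the kallikreins, with 13 of 24 gained and 3 kept, and 18 type I keratin genes on chromosome 11, all gained in 1 KO domain. On that chromosome 29.55% of all promoters unmarked in WT were gained. Over all chromosomes 48.8% of promoters marked in WT were kept and 13.6% of those unmarked in WT were gained. Each of these families lies in at most 7 domains of either list, so their counts describe a few domains.

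Chromosomes 8 and 11 also stood apart in other H3K27me3 lists. Domains covered 67.7% of chromosome 8 and 57.6% of chromosome 11 in WT mESC, against 23.2 to 45.9% of the other autosomes, and 78.6% and 38.9% at WT week 3, against 21.7 to 36.4%. In the KO lists coverage of chromosome 8 was 2.17% in mESC and 6.44%, 38.2% and 51.4% in EBs of weeks 1, 2 and 3, and that of chromosome 11 was 12.5%, 30.7%, 50.3% and 42.4%. The KO lists of mESC and week 1 covered 0.957 to 7.05% and 3.61 to 10.5% of the other autosomes, so chromosome 8 was within their range at both and chromosome 11 above it. The number of copies of these chromosomes in the cells was not measured here.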
